A study of Mus musculus with 93 samples.

Results

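The enzymes that desaturate and elongate polyunsaturated fatty acids were represented by 5 genes, Fads2, Fads1, Elovl5, Elovl2 and Elovl3. Their members were all probesets whose gene symbol on the platform was one of these 5 names, which gave 9 of the 11412 probesets and 5 of the 6661 genes in the expression table. Gene expression was measured by microarray in livers of single male mice, 1 array per mouse, 6 h after a single gavage that followed a 4 h fast. The mice had been kept on a diet with olive oil as its fat, and each triglyceride carried a single kind of fatty acid, so the design asks how one dietary fatty acid or PPARα agonist alters hepatic expression with and without the nuclear receptor PPARα. PPARα -/- mice were of the substrain 129S4/SvJae and WT mice of 129S1/SvImJ, so the loss of PPARα and the substrain cannot be told apart. In a first run of 56 arrays both genotypes received 4 mg of the PPARα agonist WY14643 or fenofibrate, 400 µl triolein (C18:1), trieicosapentaenoin (C20:5) or tridocosahexaenoin (C22:6), or the vehicle carboxymethyl cellulose as control. In a second run of 37 arrays they received 400 µl tridecanoin (C10:0), trilinolein (C18:2) or trilinolenin (C18:3), or the vehicle as control. Groups held 3 to 5 mice, 48 PPARα -/- and 45 WT mice in all. The WY14643 groups and the controls of the first run were 12 to 20 weeks old, and all other groups were 8 to 24 weeks old. Each treated group was compared with the control mice that shared both its run and its genotype. Levels are log2 signals, so a difference of 1 is a doubling, and a change was called when limma's moderated test gave a Benjamini-Hochberg adjusted p under 0.05 over the 10432 probesets fitted.

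Linoleic acid and α-linolenic acid cannot be made by mammals and are converted in the endoplasmic reticulum of the liver to longer, more unsaturated acids by alternating desaturation and elongation. Fads2 encodes the desaturase that opens the pathway, Elovl5 the elongase that follows it, Fads1 the desaturase whose products are arachidonic acid and eicosapentaenoic acid, and Elovl2 the elongase of the last steps before docosahexaenoic acid, whose final shortening takes place in peroxisomes. Elovl3 belongs to the same elongase family but is best known for very long saturated and monounsaturated chains. Transcription of the pathway in rodent liver is known to respond to the lipogenic transcription factor SREBP-1 and to PPARα.

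Median signals per array were 135.4 to 145 units among first-run arrays, against 153.6 to 167.3 units among second-run arrays, and arrays of the same group correlated at 0.920 to 0.991. Ppara probeset 1457721_at read 5.94 to 7.93 in the 48 PPARα -/- livers and 8.10 to 9.52 in the 45 WT livers, with no overlap. The other Ppara probesets overlapped, with 9.001 to 10.78 in PPARα -/- and 10.34 to 11.62 in WT livers for 1439675_at, and 7.05 to 9.85 in PPARα -/- and 8.32 to 11.18 in WT livers for 1449051_at. All 6 hepatocyte markers of the list used were measured. Of the 8 Kupffer cell markers, 8 were higher in PPARα -/- livers in the first run and 6 in the second when the genotypes were compared over all groups of a run, with a median difference of 0.99 and 0.57, against 0.04 and 0.00 over all probesets, of which 35.5% and 22.9% were called higher. Stellate cell markers were called higher in 5 of 5 (median 0.54) in the first run and 1 of 5 (0.38) in the second, endothelial markers in 2 of 4 in each run (0.37 and 0.27), and hepatocyte markers in 3 and 2 of 6 (0.03 and 0.02). The Kupffer cell marker Marco (mean signal 2.22), the stellate marker Col1a1 (2.42) and the endothelial marker Lyve1 (3.77) lay near the bottom of the signal range. They are part of these counts, medians and mean levels. The mean level of the Kupffer cell markers ranged from 5.05 to 8.44 in PPARα -/- and from 5.59 to 7.36 in WT livers of the first run, and from 6.90 to 7.65 in PPARα -/- and from 6.33 to 7.89 in WT livers of the second, and the part of these cell types in the differences between genotypes was not tested. In whole liver, fewer cells of a type and less RNA per cell cannot be told apart. Of the 9 member probesets 9 passed the filter on variation. The level of Fads1 probeset 1440444_at lay at or below the 5th percentile of its array on 59 of 93 arrays, so its changes are given with levels and no fold change where a whole group was that low.

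Fads2, Fads1 and Elovl3 lie on chromosome 19 of the GRCm38.p6 assembly. Fads2 (chr19:10062765-10101503) and Fads1 (chr19:10182877-10196874) are separated by 81373 bases, and Elovl3 lies at chr19:46131897-46135694. Elovl2 lies at chr13:41182382-41220403 and Elovl5 at chr9:77917365-77984519. RefSeq promoter windows, from 250 bases before to 50 bases after the start, were matched for 3 of the 5 members, Fads2, Elovl2 and Elovl5. They were searched on both strands for the E-box CACGTG, the CCAAT box, the cAMP response element TGACGTCA, a DR1 element (AGGTCA repeated after 1 base) and the sterol element TCACNCCAC. No motif overlaps another in the matches. The Elovl5 window (chr9:77917115-77917414, plus strand) is shown because Elovl5 carried the treatment calls described below, and the Fads2 window (chr19:10101454-10101753, minus strand) because Fads2 differed between genotypes. Motif matches are in capitals, and both run 5′ to 3′.
Elovl5: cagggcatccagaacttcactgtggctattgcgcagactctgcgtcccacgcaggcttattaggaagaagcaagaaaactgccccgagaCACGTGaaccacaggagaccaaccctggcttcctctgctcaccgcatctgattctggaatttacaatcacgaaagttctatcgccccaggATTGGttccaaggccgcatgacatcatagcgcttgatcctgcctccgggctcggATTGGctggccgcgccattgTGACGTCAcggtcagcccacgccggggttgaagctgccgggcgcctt
Fads2: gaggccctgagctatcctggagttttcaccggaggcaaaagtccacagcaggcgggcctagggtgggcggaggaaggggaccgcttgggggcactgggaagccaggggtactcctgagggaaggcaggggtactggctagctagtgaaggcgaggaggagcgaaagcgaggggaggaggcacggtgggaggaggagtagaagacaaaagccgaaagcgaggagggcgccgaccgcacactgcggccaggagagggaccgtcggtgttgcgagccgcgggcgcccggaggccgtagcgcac
The Elovl5 window held 1 CACGTG, a pair of CCAAT on the minus strand (printed as ATTGG) and 1 TGACGTCA. CACGTG was found in 7.15% of all 32851 promoter windows, CCAAT in 37.4% and TGACGTCA in 1.79%. None of the 5 motifs was found in the Fads2 window or in that of Elovl2, and neither the DR1 nor the sterol element was found in that of Elovl5. The DR1 element occurred in 0.0396% and the sterol element in 1.24% of all windows. GC content was 57.7% for Elovl5, 67.0% for Fads2 and 84.7% for Elovl2.

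Elovl3 was 2.88-fold lower in PPARα -/- livers in the first run and 2.90-fold lower in the second, Fads2 and Elovl5 were lower in both runs by 1.20 to 1.65-fold, and Elovl2 was called lower in the second run and not in the first. Over all groups of a run, 62.6% of all probesets were called between the genotypes in the first run and 45% in the second, and among the controls alone no member was called. A treatment called a member's main probeset, the one with the highest mean signal, in 2 of 80 comparisons, and both were falls of Elovl5 in PPARα -/- livers, after C18:3 and after C10:0. Of all probesets in PPARα -/- mice, 0% were called after WY14643, 0.125% after fenofibrate, 1.48% after C18:1, 0.0671% after C20:5, 14.7% after C22:6, 6.88% after C10:0, 0.268% after C18:2 and 10.5% after C18:3. In WT mice the shares were 26.6% after WY14643, 13.8% after fenofibrate, 0% after C18:1, 0.546% after C20:5, 5.86% after C22:6, 1.61% after C10:0, 0.431% after C18:2 and 3.52% after C18:3.

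For Fads2, the entry desaturase, no treatment call was made by any of its 3 probesets in the 16 comparisons. The changes of its main probeset ran from -0.48, after C20:5 in PPARα -/- mice, to 0.39, after C18:1 in WT mice. After C20:5 it read 9.07, 9.18, 9.26 and 9.56 in PPARα -/- livers, against 9.33, 10.14, 10.04, 9.68 and 9.52 in PPARα -/- controls, so the treated livers were at the low end but overlapped the controls. The adjusted p of the 16 comparisons was 0.268 or higher. All 8 changes of the main probeset in WT livers were above 0, at 0.06 to 0.39, and none passed the test. Of the 8 WT changes of probeset 1449325_at 2 were below 0, and so were 2 of 1443838_x_at. Their lowest were -0.08 and -0.24, both after fenofibrate.

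Set by genotype, Fads2 differed most in the second run. After C10:0 its main probeset read 9.01, 9.02, 9.38, 9.92 and 9.75 in PPARα -/- livers and 10.63, 10.19, 10.59, 10.98 and 10.01 in WT livers, so that every WT liver was above every PPARα -/- liver. The difference was -1.06 (95% interval -1.51 to -0.61, 2.09-fold, adjusted p = 0.000268). After C18:3 the levels were 10.29, 9.51, 9.49, 10.07 and 9.34 in PPARα -/- livers and 10.40, 10.45, 10.60, 10.44 and 10.80 in WT livers, again without overlap and with a difference of -0.80 (adjusted p = 0.00457). After C20:5, in the first run, the PPARα -/- values given above stood below 9.93, 10.27, 10.04, 9.85 and 9.79 in WT livers, with a difference of -0.71 (adjusted p = 0.0333). Of all probesets, 7.39% were without overlap in this direction after C10:0, 9.93% after C18:3 and 9.2% after C20:5. In either direction, 14.4% were called between genotypes after C10:0, 29% after C18:3 and 15.1% after C20:5. The call for C20:5 was lost when any of WT replicates 2 and 3 or PPARα -/- replicates 1, 2 and 3 was left out, with adjusted p between 0.0539 and 0.0958. The control groups alone gave -0.11 in the first and -0.41 in the second run, and neither passed. The contrasts between genotypes after a treatment and over all groups of a run were added after values had been seen.

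Over all groups of a run, weighted equally, Fads2 was lower in PPARα -/- than in WT livers by 0.26 in the first run (1.20-fold, adjusted p = 0.0162) and by 0.72 in the second (1.65-fold, adjusted p = 3.82e-07). The lowest, median and highest levels were 9.01, 9.70 and 10.43 in 19 PPARα -/- livers and 9.25, 10.48 and 10.98 in 18 WT livers of the second run. Of these WT livers, 12 were above every PPARα -/- liver, while 2 of 19 PPARα -/- livers were below every WT liver. In the first run 1 of 27 WT livers was above every PPARα -/- liver, and 9 of 29 PPARα -/- livers were below every WT liver. Such counts were not made over all probesets. The 2 other Fads2 probesets were called lower in both runs as well, by 0.38 and 0.45 in the first run and by 0.82 and 0.70 in the second. Of all probesets, 27.1% were called lower in the first run and 22.1% in the second. Without the C22:6 groups the first-run value of the main probeset was -0.23 with an adjusted p of 0.0572. Whether the 2 runs differ was not tested.

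**Figure D1:**
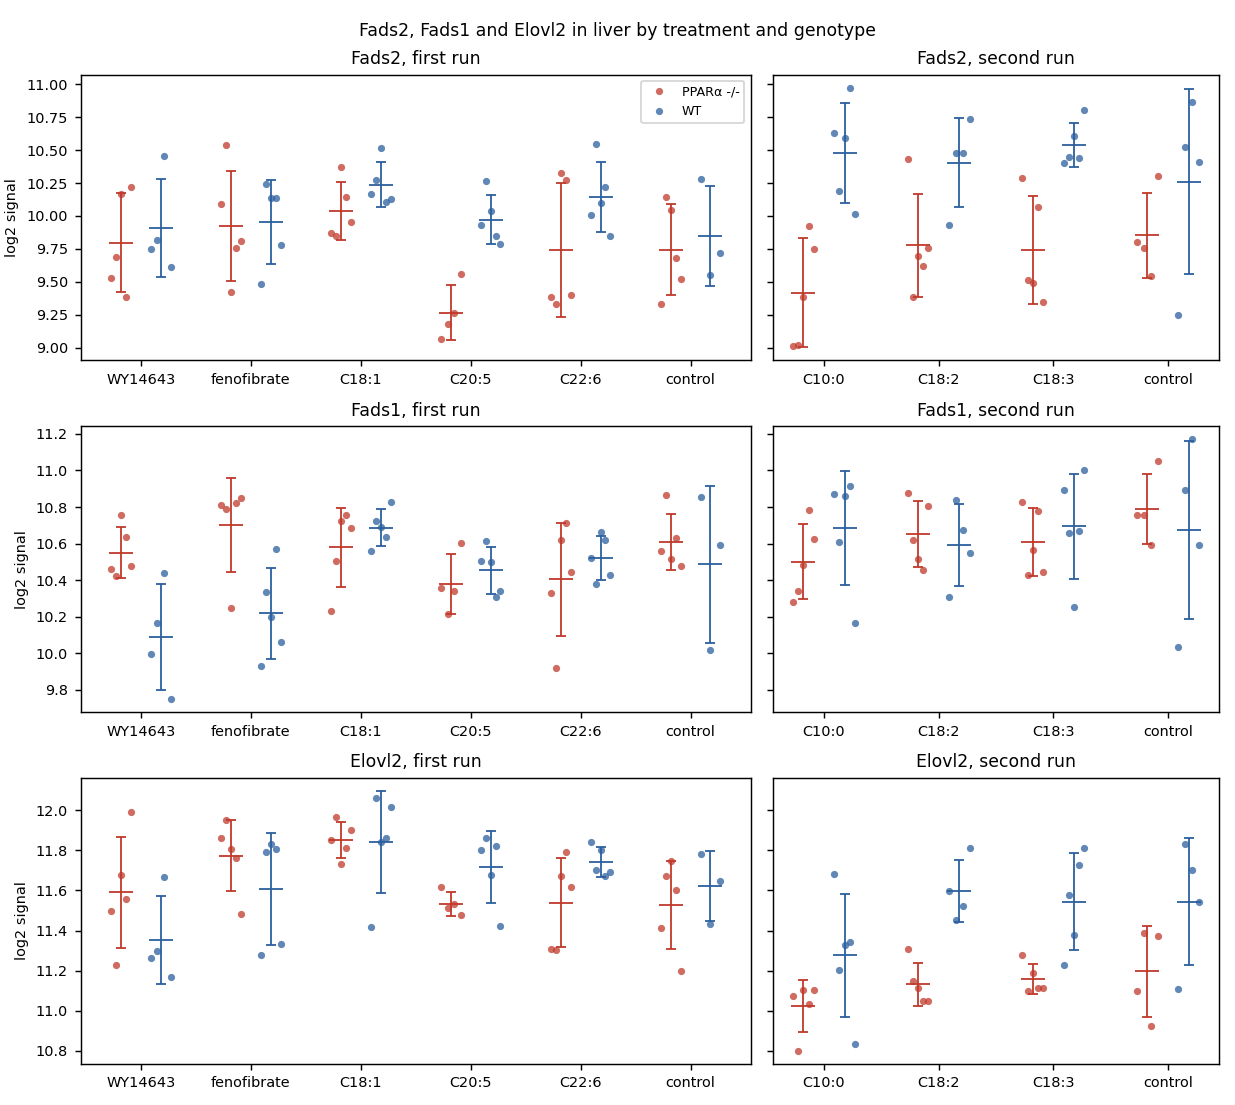
Log2 signal of the main probesets of Fads2, Fads1 and Elovl2 on the vertical axes in each of the 93 livers, by treatment and run on the horizontal axis, with PPARα -/- mice in red left of WT mice in blue and bars for the mean ± SD. Fads2 in the second run shows 12 of 18 WT livers above all 19 PPARα -/- livers, and 2 PPARα -/- livers below all WT livers.

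Fads1, the desaturase that forms arachidonic and eicosapentaenoic acid, had small changes. Those of its main probeset lay between -0.40 and 0.20 over the 16 treatment comparisons, with no call. The lowest was that of WY14643 in WT mice, which read 10.00, 10.17, 10.44 and 9.75 after WY14643 and 10.85, 10.02 and 10.59 in controls. Control replicate 2 lay among the treated livers while the other two controls were above all of them. The change had an adjusted p of 0.101, and it was called without that control (-0.64, adjusted p = 0.014) and without WY14643 replicate 3 (-0.52, adjusted p = 0.0412).

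Fads1 was the member whose main probeset was called higher in PPARα -/- livers, in 2 of the 40 comparisons between genotypes after a treatment, both after an agonist. The other called differences, 17 of 40, were all lower. After fenofibrate it read 10.81, 10.79, 10.25, 10.82 and 10.85 in PPARα -/- livers and 9.93, 10.33, 10.20, 10.57 and 10.06 in WT livers. Only PPARα -/- replicate 3 fell within the WT range. The difference was 0.49 (95% interval 0.18 to 0.79, adjusted p = 0.0081), where 37% of all probesets were called. After WY14643 the PPARα -/- livers read 10.46, 10.42, 10.76, 10.64 and 10.48 and the WT livers had the values given above, for a difference of 0.46 (1.38-fold, adjusted p = 0.014) against a background of 47.1%. That call was lost without WT replicate 4 (0.35, adjusted p = 0.0946). The controls differed by 0.12 in each run, and the changes after either agonist were not shown to differ between genotypes (0.34 and 0.36, adjusted p = 0.375 and 0.394). Averaged over all groups of a run, the difference was 0.13 (adjusted p = 0.0786) in the first run and -0.02 in the second. It was called in the first run without the C22:6 groups (0.18, adjusted p = 0.0288). The second Fads1 probeset, 1440444_at, was called higher in the first run, at a mean of 4.50 in PPARα -/- and 3.75 in WT livers (adjusted p = 2.92e-05). These means include groups that lay wholly at the bottom of the signal range. In the second run the probeset was not called, with PPARα -/- livers lower (adjusted p = 0.43). It was also called higher in PPARα -/- livers after WY14643 (means 4.55 and 3.31 in WT, adjusted p = 0.0067), fenofibrate (4.87 and 3.81 in WT, adjusted p = 0.0183) and C22:6 (4.04 and 3.06 in WT, adjusted p = 0.0298). Leaving out PPARα -/- replicate 1 (adjusted p = 0.0747) or 3 (0.0504) ended the call for fenofibrate. That for C22:6 was ended by leaving out WT replicate 3 (0.0934) or 5 (0.0615) or PPARα -/- replicate 1 (0.0744), 3 (0.0682) or 5 (0.0554). With quantile normalization the calls for WY14643 (adjusted p = 0.0556) and C22:6 (0.114) were lost. The WT groups after WY14643 and C22:6 lay wholly at the bottom of the signal range.

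Probeset 1440444_at of Fads1 sat at the bottom of the signal range and was the only other member probeset with treatment calls beside those of Elovl5. After C18:3 in PPARα -/- mice it read 3.85, 3.13, 3.82, 3.94 and 2.39, against 4.81, 4.90, 4.93 and 4.88 in PPARα -/- controls, without overlap, as for 4.76% of all probesets (adjusted p = 0.0109). After C22:6 it read 4.50, 3.02, 4.36, 4.10 and 4.23 in PPARα -/- livers, against 5.42, 5.54, 4.94, 4.82 and 4.64 in their controls, also without overlap, as for 2.64% of all probesets (adjusted p = 0.0481). In WT mice it read 3.36, 3.05, 2.43, 3.60 and 2.85 after C22:6 and 3.37, 2.95, 3.68 and 3.24 after WY14643, against 5.28, 3.62 and 5.12 in controls (adjusted p = 0.0113 and 0.0157). All C22:6 livers of the WT mice were below all 3 controls, as for 4.72% of all probesets, while WY14643 replicate 3 was above control replicate 2, the lowest of the 3. The main Fads1 probeset was not called in any of these 4 comparisons, and the correlation between both probesets over arrays was 0.410. Probeset 1440444_at was also below all PPARα -/- controls after C20:5, C10:0 and C18:2, without a call (adjusted p = 0.643, 0.0799 and 0.0779). Of all probesets, 1.04%, 4.5% and 2.04% were so. On the arrays of the 2 groups alone, C22:6 was not called in PPARα -/- (adjusted p = 0.171) or WT mice (0.109), while C10:0 in PPARα -/- mice was (0.0234). The C22:6 call in PPARα -/- mice held in 3 of 10 fits that left out 1 liver, and was lost without control replicate 1 (adjusted p = 0.113), 2 (0.127) or 4 (0.059) or C22:6 replicate 2 (0.237), 3 (0.0556), 4 (0.0526) or 5 (0.0549). The call for C18:3 was lost without C18:3 replicate 5 (0.0747), and without WT control replicate 1 or 3 neither that for WY14643 (0.129 and 0.104) nor that for C22:6 in WT mice (0.105 and 0.0951) was made.

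Elovl5, the elongase between both desaturation steps, gave the 2 treatment calls on a main probeset. After C18:3 in PPARα -/- mice its main probeset read 11.70, 10.87, 11.42, 11.35 and 11.20, against 11.83, 12.33, 12.28 and 11.68 in PPARα -/- controls. Only C18:3 replicate 1 reached the control range, and it exceeded control replicate 4 alone. The mean was 11.31 ± 0.31 after C18:3 (SD, n = 5) and 12.03 ± 0.32 in controls (SD, n = 4). The change was -0.72 (95% interval -1.05 to -0.40, 1.65-fold, adjusted p = 0.0023), and it was called in 9 of 9 fits that left out 1 of these livers. The second probeset read 11.39, 10.41, 11.00, 10.94 and 10.73 after C18:3 and 11.58, 12.01, 11.81 and 11.47 in controls. Its groups did not overlap, as those of 4.76% of all probesets did not in this direction, and it fell by 0.82 (adjusted p = 0.00106). Fitted on the arrays of these 2 groups alone, the change of the main probeset had an adjusted p of 0.0815 and that of the second 0.0576. Lower calls made up 4.42% of all probesets in this comparison. The 5 stellate cell markers had a median change of -0.63 after C18:3, where 0 of 5 were called, against -0.01 over all probesets. Their mean level was 6.27 to 6.70 after C18:3 and 6.46, 6.56, 7.34 and 8.62 in the controls. Without control replicate 4, the highest of these, the change of Elovl5 was -0.84 (adjusted p = 0.00146). Without replicate 3, the next highest, it was -0.64 (adjusted p = 0.019). The part of stellate cells in the change of Elovl5 was not tested.

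After C10:0, a saturated triglyceride of medium chain length, Elovl5 read 11.22, 11.07, 11.88, 11.70 and 11.40 in PPARα -/- livers against the same 4 controls. Replicates 3 and 4 lay within the control range and the other three below it. The change was -0.57 (95% interval -0.90 to -0.25, 1.49-fold, adjusted p = 0.0208), and the second probeset fell by 0.64 (adjusted p = 0.0151), where 3.39% of all probesets were called lower. The call was lost in 5 fits that left out 1 liver, without control replicate 2 (-0.48, adjusted p = 0.102) or 3 (-0.49, adjusted p = 0.0876), or C10:0 replicate 1 (-0.52, adjusted p = 0.0708), 2 (-0.48, adjusted p = 0.0868) or 5 (-0.56, adjusted p = 0.0513). On the arrays of the 2 groups alone its adjusted p was 0.172. The stellate cell markers had a median change of -0.66, with 1 of 5 called lower, and a mean level of 6.27 to 6.65 after C10:0. Without control replicate 4 the change of Elovl5 was -0.69 (adjusted p = 0.00974), and without replicate 3 it was the -0.49 given above. The part of stellate cells was not tested here either. After C18:2 the livers read 11.34, 11.26, 11.68, 11.05 and 12.00, a change of -0.56 with an adjusted p of 0.0825. It was called without control replicate 4 (-0.68, adjusted p = 0.0427) and without C18:2 replicate 5 (-0.70, adjusted p = 0.0316). The 3 triglycerides of this run share their controls.

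In WT mice the changes of Elovl5 were between -0.07 and 0.30 and none was called. After C18:3 the WT livers read 11.91, 11.83, 12.24, 12.48 and 12.33, against 11.96, 12.20, 12.36 and 12.08 in WT controls, with overlap. The change in PPARα -/- mice minus that in WT mice was -0.73 (95% interval -1.19 to -0.27, adjusted p = 0.103) for C18:3, where 1.01% of all probesets were called, and -0.57 (adjusted p = 0.728) for C10:0. A difference between the genotypes in these responses was therefore not shown by the test.

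The 1 such difference that was called, of 40 tested on the main probesets, was that of Elovl5 after WY14643. Of all probesets, 16.5% were called in this contrast, against 7.25% for fenofibrate, 0% for C18:1, 0.0288% for C20:5, 3.2% for C22:6, 0.0192% for C10:0 and 0% for C18:2. PPARα -/- livers read 11.36, 11.44, 11.57, 11.73 and 11.52 after WY14643 and 11.80, 12.27, 11.39, 12.05 and 12.10 in controls. WT livers read 12.24, 12.05, 12.37 and 11.91 after WY14643 and 11.98, 11.71 and 11.84 in controls. The treated PPARα -/- livers lay low among their controls and the treated WT livers high among theirs, with overlap in both, and neither change was called alone. The difference was -0.70 (95% interval -1.18 to -0.22, adjusted p = 0.0347), and that of the second probeset was -0.60 with an adjusted p of 0.10. It was called in 8 of 17 fits that left out 1 liver. The call was lost without WT control replicate 2 (adjusted p = 0.0993) or 3 (0.0668), WT WY14643 replicate 1 (0.0669) or 3 (0.0845), PPARα -/- control replicate 2 (0.0819), 4 (0.0562) or 5 (0.061), or PPARα -/- WY14643 replicate 1 (0.0607) or 2 (0.0517).

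Between genotypes Elovl5 was lower in PPARα -/- livers after 5 of the 8 treatments and did not pass in the controls of either run, at 0.08 and -0.12. The largest of these differences was after C18:3 (-0.85, 1.80-fold, adjusted p = 9e-06), where every PPARα -/- liver was below every WT liver, as were those of 9.93% of all probesets. The others were -0.69 after C10:0, -0.62 after WY14643, -0.61 after C18:2 and -0.42 after C22:6. Probesets called in either direction made up 15.9% after C18:2 and 36.5% after C22:6. Without WT replicate 2 or 3 or PPARα -/- replicate 2 or 4 the call for C22:6 was not made (adjusted p 0.0543 to 0.13). Over all groups Elovl5 was lower by 0.26 in the first run (1.20-fold, adjusted p = 0.000374) and by 0.57 in the second (1.48-fold, adjusted p = 1.04e-08). Lowest, median and highest levels in the second run were 10.87, 11.42 and 12.33 in PPARα -/- livers. In WT livers they were 11.67, 12.14 and 12.48. There, 10 of 19 PPARα -/- livers were below every WT liver, and 5 of 18 WT livers were above every PPARα -/- liver. For the second probeset these counts were 11 and 1. They were not made over all probesets.

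Elovl2, the elongase of the last steps toward docosahexaenoic acid, was not called after any treatment, with changes from -0.27 to 0.33. Between genotypes it was lower in PPARα -/- livers after both C18 polyunsaturated triglycerides. After C18:2 it read 11.31, 11.15, 11.11, 11.05 and 11.05 in PPARα -/- livers and 11.60, 11.46, 11.52 and 11.81 in WT livers, without overlap, as for 9.99% of all probesets (-0.46, 1.38-fold, adjusted p = 0.012). After C18:3 it read 11.28, 11.10, 11.19, 11.11 and 11.11 in PPARα -/- livers and 11.23, 11.58, 11.38, 11.73 and 11.81 in WT livers, where WT replicate 1 alone fell within the PPARα -/- range (-0.39, 1.31-fold, adjusted p = 0.018). Leaving out WT replicate 4 ended the C18:2 call (adjusted p = 0.0689), and leaving out WT replicate 4 (0.058) or 5 (0.0761) ended that for C18:3. Over all groups the difference was -0.36 in the second run (1.29-fold, adjusted p = 7.03e-06) and -0.01 in the first (adjusted p = 0.88). The controls of the second run differed by 0.35, lower in PPARα -/- mice (adjusted p = 0.14), and this was called without WT control replicate 1 (-0.49, adjusted p = 0.0332).

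Elovl3, the elongase of saturated and monounsaturated chains, had the widest range of the main probesets and the largest differences between genotypes. In the first run the lowest, median and highest levels were 6.88, 8.43 and 10.20 in 29 PPARα -/- livers and 8.94, 9.98 and 10.96 in 27 WT livers. In the second run they were 6.54, 7.74 and 9.28 in 19 PPARα -/- livers and 8.08, 9.34 and 10.13 in 18 WT livers. Of the PPARα -/- livers, 20 of 29 and 14 of 19 were below every WT liver of their run. Of the WT livers, 11 of 27 and 10 of 18 were above every PPARα -/- liver. The genotypes thus overlapped in both runs, whereas 1.33% and 1.82% of all probesets were wholly lower in PPARα -/- livers. A share over all probesets was not computed for the partial counts. The mean difference was -1.52 in the first run (2.88-fold, adjusted p = 9.25e-12) and -1.54 in the second (2.90-fold, adjusted p = 1.1e-08), and without the C22:6 groups it was -1.41 in the first. Ordered by mean level, the 6 highest of 12 groups in the first run and the 4 highest of 8 in the second were the WT groups. Neighbours in this order differed by less than the spread within groups, except 1 gap of 0.73 in the second run between WT livers after C10:0 and the PPARα -/- group below them.

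**Figure D2:**
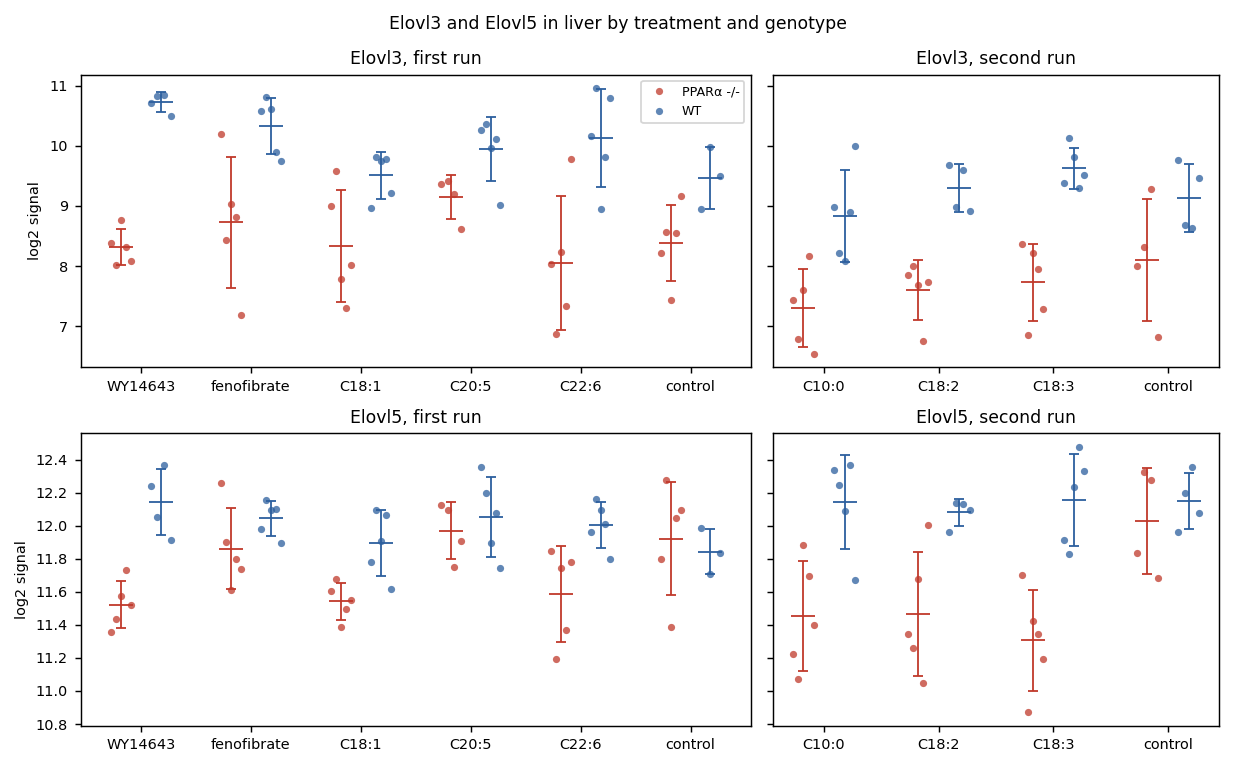
Log2 signal of the main probesets of Elovl3 and Elovl5 on the vertical axes in each of the 93 livers, by treatment and run on the horizontal axis, with PPARα -/- mice in red left of WT mice in blue and bars for the mean ± SD. Elovl3 is lower in PPARα -/- livers in both runs, and Elovl5 after C18:3 has a mean of 11.31 in PPARα -/- livers.

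Within single treatments Elovl3 was lower in PPARα -/- livers after 7 of 8. After WY14643 it read 8.38, 8.02, 8.77, 8.31 and 8.09 in PPARα -/- livers and 10.71, 10.83, 10.85 and 10.50 in WT livers. The groups were far apart, as 17.9% of all probesets did not overlap in this direction, with a difference of -2.41 (95% interval -3.29 to -1.53, 5.32-fold, adjusted p = 4.59e-06). After C22:6 it read 8.03, 6.88, 8.23, 7.33 and 9.78 in PPARα -/- livers and 10.16, 10.96, 8.94, 9.81 and 10.79 in WT livers. PPARα -/- replicate 5 lay within the WT range, and the difference was -2.08 (4.24-fold, adjusted p = 3.99e-05). The other called differences ran from -1.90 after C18:3 to -1.17 after C18:1, where 16% of all probesets were called. Leaving out any of WT replicates 2, 3 and 4 or PPARα -/- replicates 3, 4 and 5 ended the call for C18:1 (adjusted p 0.0822 to 0.169). After C20:5 the difference was -0.79 (adjusted p = 0.24). The controls differed by -1.09 in the first run (adjusted p = 0.16) and -1.03 in the second (adjusted p = 0.19), without a call, where 9.08% and 7.56% of all probesets were called.

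No treatment changed Elovl3 by the test. The highest change was that of WY14643 in WT mice, whose livers, with the values above, were all above 8.95, 9.98 and 9.49 in WT controls, as 15.5% of all probesets were. The mean was 10.73 ± 0.16 after WY14643 (SD, n = 4) and 9.47 ± 0.52 in controls (SD, n = 3). The change was 1.25 (95% interval 0.25 to 2.26, 2.38-fold, adjusted p = 0.0555), and it was called without control replicate 2 (1.51, adjusted p = 0.0453) and on the arrays of these 2 groups alone (adjusted p = 0.00842). After fenofibrate the WT livers read 10.58, 10.80, 10.60, 9.90 and 9.75, of which 3 were above all controls and 2 overlapped them (0.85, adjusted p = 0.27). In PPARα -/- livers the levels after WY14643 overlapped 8.21, 8.56, 7.44, 8.54 and 9.17 in controls. The difference between the genotypes in the effect of WY14643 was -1.32 (95% interval -2.63 to -0.02, adjusted p = 0.173), and it was called on the arrays of the compared groups alone (adjusted p = 0.0389) and with array weights (-1.45, adjusted p = 0.0356).

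**Figure D3:**
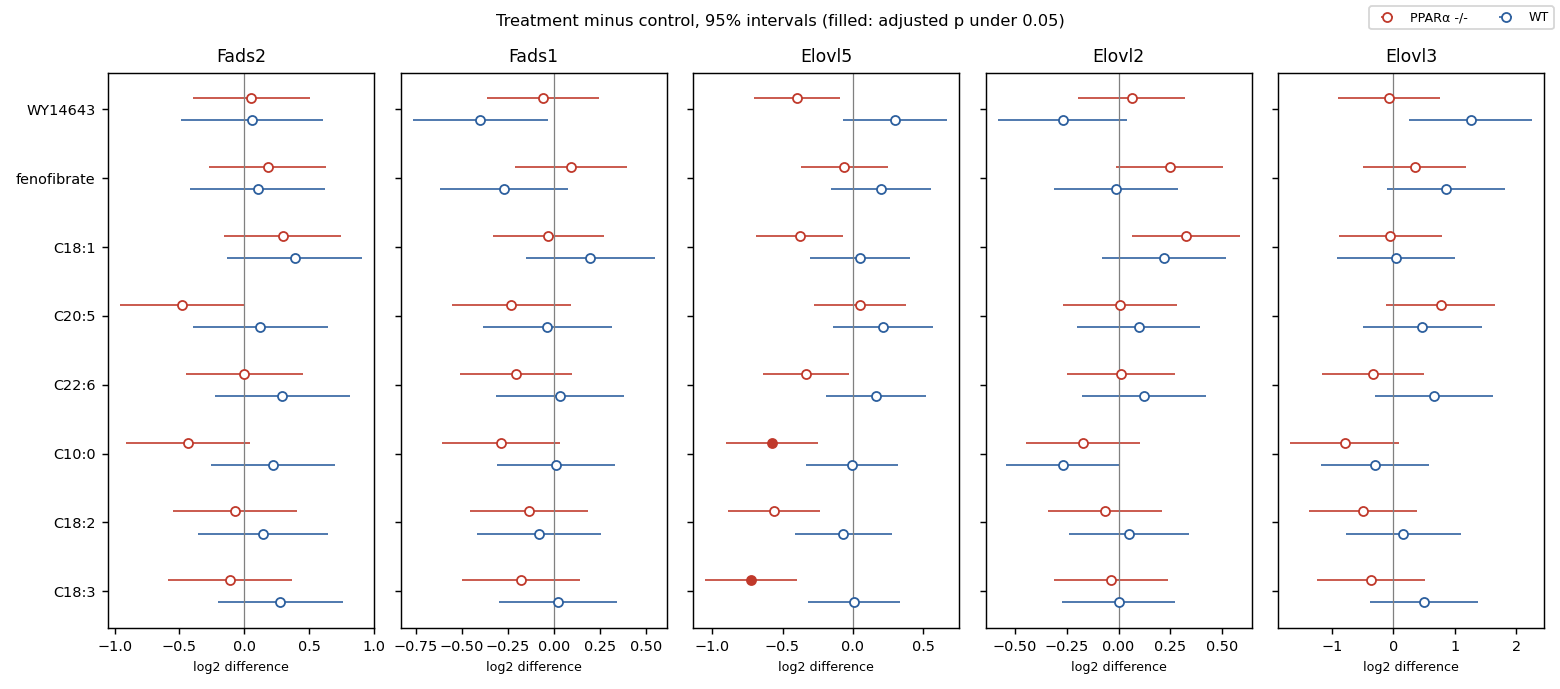
Change in log2 signal against the control of the same run and genotype for the main probeset of each gene (horizontal axis), by treatment (vertical axis), with 95% intervals, PPARα -/- mice above WT mice, and filled points for an adjusted p under 0.05. Of 80 changes 2 are filled, Elovl5 after C10:0 (-0.57) and after C18:3 (-0.72) in PPARα -/- livers.

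**Figure D4:**
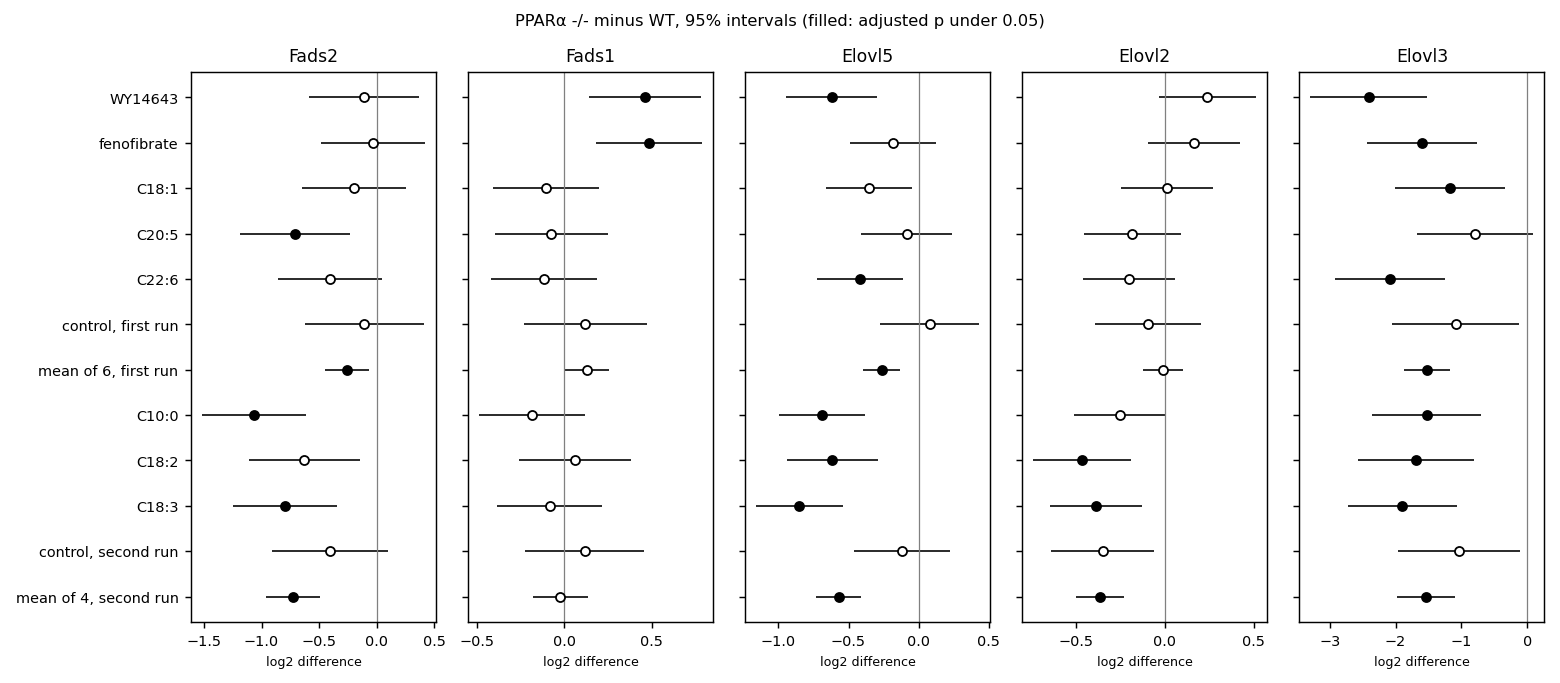
Difference in log2 signal, PPARα -/- minus WT, for the main probeset of each gene (horizontal axis) in the controls and after each treatment (vertical axis), with 95% intervals and filled points for an adjusted p under 0.05. Elovl3 is to the left of 0 in every row and most so after WY14643 (-2.41), and Fads1 has its filled points to the right of 0 after WY14643 (0.46) and fenofibrate (0.49).

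Triglycerides that differ in chain length or number of double bonds were compared at the same volume and time within a run, in 6 pairs per genotype. None of 60 comparisons on the main probesets passed, and p-values were adjusted over all probesets within each pair. Of all probesets in PPARα -/- mice, 0.326% were called for C22:6 against C18:1, 0.192% for C20:5 against C18:1, 3.13% for C22:6 against C20:5, 0% for C18:3 against C18:2, 0.0192% for C18:2 against C10:0 and 0.882% for C18:3 against C10:0. In WT mice they were 4.36% for C22:6 against C18:1, 1.25% for C20:5 against C18:1, 0.0383% for C22:6 against C20:5, 0% for C18:3 against C18:2, 0.00959% for C18:2 against C10:0 and 0.0192% for C18:3 against C10:0. Over all 9 probesets 1 of 108 comparisons was called, that of Fads1 probeset 1440444_at for C22:6 against C18:1 in WT mice. It read 3.36, 3.05, 2.43, 3.60 and 2.85 after C22:6 and 4.06, 5.50, 4.92, 3.71 and 3.48 after C18:1 (adjusted p = 0.0285), with C18:1 replicate 5 within the C22:6 range. It was no longer called when C18:1 replicate 2 (adjusted p = 0.164) or 3 (0.0984) or C22:6 replicate 2 (0.0572), 3 (0.0767) or 5 (0.083) was left out. For Fads2 in PPARα -/- livers, C20:5, with the levels given above, was below C18:1, with 2.32% of all probesets without overlap in this direction, and the difference was -0.77 (95% interval -1.25 to -0.30, adjusted p = 0.169). For Elovl3 in PPARα -/- livers C22:6 minus C20:5 was -1.10 (95% interval -1.99 to -0.22, adjusted p = 0.143), with 9.37, 9.41, 9.21 and 8.62 after C20:5. C22:6 replicate 5 was above all C20:5 livers and the other four were below them, and the difference was called without it (-1.54, adjusted p = 0.0324). For Elovl5 in PPARα -/- livers C20:5 minus C18:1 was 0.43 (95% interval 0.10 to 0.75, adjusted p = 0.325). C18:3 and C18:2, which differ by 1 double bond, gave a difference of -0.16 in PPARα -/- livers (95% interval -0.47 to 0.15) and 0.08 in WT livers (95% interval -0.25 to 0.40) for Elovl5, and of -0.04 (95% interval -0.49 to 0.41) and 0.13 (95% interval -0.34 to 0.61) for Fads2. Each of these intervals spans 0, so neither direction was excluded. Between the agonists, WY14643 and fenofibrate, none of 10 differences was called, where 0.0959% of all probesets were called in PPARα -/- mice and 1.85% in WT mice.

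The levels of Fads1 and Fads2 moved together from liver to liver. After removal of the mean of each run and genotype, their correlation over 93 arrays was 0.706 (Spearman 0.696). It was 0.632 within the first and 0.809 within the second run, 0.731 after removal of group means, and 0.677 without the 2 farthest arrays. Elovl2 correlated at 0.588 with Fads2 and at 0.587 with Fads1. Elovl3 and Elovl5 correlated at 0.466, at 0.632 in PPARα -/- and 0.103 in WT livers, and Fads1 and Elovl3 at -0.247, at 0.043 in PPARα -/- and -0.552 in WT livers. These arrays share runs, treatments and normalization, so the values are descriptions.

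**Figure D5:**
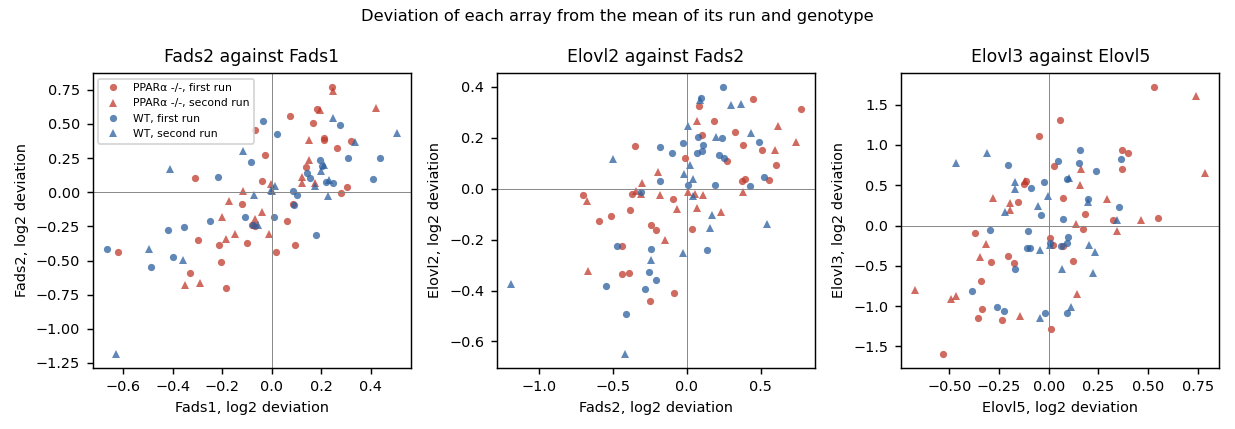
Deviations of log2 signal from the mean of the same run and genotype in each of 93 livers. Panels show Fads2 against Fads1, Elovl2 against Fads2 and Elovl3 against Elovl5, with the gene named first on the vertical axis. Circles mark the first and triangles the second run, with PPARα -/- mice in red and WT mice in blue. The correlation is 0.706 for Fads1 and Fads2, 0.588 for Fads2 and Elovl2 and 0.466 for Elovl3 and Elovl5.

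Of all genes, Fads1 was most like Fads2 by this measure, followed by Fdx1 (0.678), Lppos (0.675), Plcg1 (0.673) and Pcyt2 (0.671), which encodes an enzyme of phosphatidylethanolamine synthesis. For Fads2, the genes after Fads1 and Elovl2 were Fabp2 (0.532), Tmem86a and Tut4 (0.527 each). The genes most like Elovl2 were Klhdc3 (0.631), Fads2, Fads1, Sgms2 and Pcbp4 (0.575 each). For Elovl3 they were BC004004 (0.652), Alg14 (0.644), Hsd17b12 (0.627), Gpd2 (0.623) and Lonp2 (0.619). Hsd17b12 encodes the ketoacyl reductase of the elongation cycle and Lonp2 a peroxisomal protease. For Elovl5 they were Aqp8 (0.809), Dbi (0.779), Gstm4 (0.769), Acsl5 (0.765) and Tkt (0.751). Dbi encodes an acyl-CoA binding protein and Acsl5 an acyl-CoA synthetase.

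Among the other elongases and enzymes of the elongation cycle, 7 of 10 listed genes were measured and 6 were called after at least 1 of the 16 treatments, as were 45.4% of all probesets. WY14643 in WT mice raised 4 and lowered 1, with a median change of 0.31 against -0.05 over all probesets. Of all probesets, 12.4% were called higher and 14.2% lower in this comparison. Hsd17b12 rose by 0.76 and Hacd1, a dehydratase of the cycle, by 0.71. Elovl1, the elongase of saturated very long chains, was the gene that fell (-1.16, adjusted p = 5.19e-09), and it also fell after fenofibrate (-0.67) and C22:6 (-0.46) in WT mice. Elovl6, which extends palmitate, fell after C22:6 in PPARα -/- mice (-1.35, adjusted p = 0.0166). Among the other desaturases and the enzymes of their electron supply, 5 of 9 were measured and 3 were called at least once, against the same 45.4%. Fads6 fell after WY14643 in WT mice (-1.09, adjusted p = 8.4e-05) and after C10:0 (-0.65) and C18:3 (-0.59) in PPARα -/- mice. Cyb5b (-0.79) and Cyb5r3 (-0.67), of the cytochrome b5 system, fell after C22:6 in PPARα -/- mice. Scd1, the main hepatic desaturase of saturated chains, was never called, with changes from -0.20 to 0.08. In the same C22:6 comparison in PPARα -/- mice, 6 of 8 Kupffer cell markers were called higher, as were 6.26% of all probesets. The part of Kupffer cells in these results was not tested.

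Of the peroxisomal genes, which complete docosahexaenoic acid and oxidise very long chains, 5 of 8 were measured. In WT mice 4 rose after both WY14643 and fenofibrate, with median changes of 0.87 and 0.76. Of all probesets, 12.4% and 7.4% were called higher, with median changes of -0.05 and -0.03. Abcd3, a peroxisomal fatty acyl transporter, rose by 1.27 after WY14643 (adjusted p = 4.08e-16) and by 0.88 after fenofibrate, and by 0.58 after C22:6, 0.47 after C20:5 and 0.33 after C18:3, and in PPARα -/- mice it fell after C22:6 (-0.26). The thiolase genes Acaa1a (1.13 and 0.80) and Acaa1b (0.87 and 0.76) and the bifunctional enzyme gene Hsd17b4 (0.71 and 0.53) rose after WY14643 and fenofibrate. Over all treatment comparisons Hsd17b4 was called higher 4 times, Acaa1a 3 times and Acaa1b 2 times. Of the 5 measured genes, 2 were called higher after C22:6 and 3 after C18:3 in WT mice, against 3.69% and 2.49% of all probesets. Acaa1b fell after C10:0 in PPARα -/- mice (-0.64). Of the genes for acyl-CoA activation and incorporation into phospholipid, 6 of 10 were measured and 6 were called at least once, against the same 45.4% of all probesets. Lpcat3, the acyltransferase that places arachidonic acid in phosphatidylcholine, rose after WY14643 (0.90, adjusted p = 3.7e-05) and fenofibrate (0.71) in WT mice and fell after C22:6 (-0.62) and C10:0 (-0.48) in PPARα -/- mice. Acsl4, a synthetase that prefers arachidonic acid, rose after C22:6 (0.56), C10:0 (0.56) and C18:3 (0.50) in PPARα -/- mice and after C10:0 in WT mice (0.70). Acsl5 fell after C18:1 (-0.69), C22:6 (-0.49) and C18:3 (-0.55) in PPARα -/- mice and rose after WY14643 in WT mice (0.75). Acsl3 lay near the bottom of the signal range, with a mean of 4.84 after WY14643 and 4.96 after fenofibrate, against 3.89 in WT controls (adjusted p = 0.0281 and 0.0157).

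Of the transcription factors and their regulators, 11 of 13 were measured and 7 were called at least once, against 45.4% of all probesets. Srebf1, the gene of SREBP-1, fell after C18:1 (-2.07), C22:6 (-2.33), C10:0 (-1.97), C18:2 (-2.57) and C18:3 (-2.78, adjusted p = 1.81e-05) in PPARα -/- mice, and after C22:6 (-1.44), C18:2 (-1.69) and C18:3 (-1.54) in WT mice. Averaged over all groups the difference, PPARα -/- minus WT, was -1.97 in the first run and -2.16 in the second. Insig2, which retains SREBP in the endoplasmic reticulum, rose after C18:3 (1.23) and C10:0 (1.13) in PPARα -/- mice, and Insig1, of the same function, fell after C22:6 (-0.92) in PPARα -/- mice. Rxra, the partner of PPARα on DNA, fell after WY14643 (-0.70), fenofibrate (-0.44) and C18:3 (-0.32) in WT mice and after C22:6 (-0.27) in PPARα -/- mice. Nr1d1, a repressor of the circadian clock, was called lower after C18:3 at signals near the bottom of the range, with means of 2.51 after C18:3 and 3.94 in controls of PPARα -/- mice and of 2.90 after C18:3 and 4.34 in controls of WT mice (adjusted p = 0.0227 and 0.0403). Ppara, by probeset 1439675_at, rose after WY14643 in WT mice (0.63). These lists were drawn up with results of the same data known and are given as counts beside the members.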

How the data were processed

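Signal intensities of 93 arrays (Affymetrix Mouse Genome, liver RNA) were used as deposited. Per the study's methods and the submitters' processing notes, the authors normalized them with GCRMA (version 2.20) and kept probesets by an inter-quartile range filter. The deposited intensity table held 11463 probesets, of which 51 Affymetrix controls were left out. Gene symbols came from the platform annotation: 10279 probesets had 1 symbol, 406 had several and 727 had none. Intensities were taken to log2, probesets with an inter-quartile range under 0.25 were removed, and 1 linear model with 20 group means was fitted in limma 3.58.1 (R 4.3.3) with 73 residual degrees of freedom. Contrasts were tested with moderated statistics, adjusted by Benjamini-Hochberg over 10432 probesets, and called under 0.05. The number of arrays limits the precision. The fit was tested on simulated data.

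All 9 member probesets are described. A gene's main probeset has the highest mean signal. From each list of other pathway genes up to 4 genes with the largest called change were named, with Srebf1, Scd1, Elovl6, Ppara and Insig1 in any case, and for each member the 5 most similar genes. Members and lists were chosen with earlier results of these data known. Replicate numbers were checked for pairing with control livers: only WY14643 in PPARα -/- mice had every pair above 0.1 (5 pairs, 0.111 to 0.303). Alternatives were no filter, 83 arrays without C10:0, only the groups compared, an intensity trend, array weights, median centring, quantile normalization, the methods' unadjusted threshold, a replicate block, any probeset of a gene, and leaving out each liver. Leaving out the C22:6 groups and a block over both genotypes were added after the data were seen. Promoter windows and positions are from RefSeq, GRCm38.p6.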

Additional observations from a re-analysis of the deposited data

Results flagged for a closer look

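For 7 of 171 combinations of a probeset and a group of at least 4 livers, 1 liver stood far from the others by Dixon's criterion, and chance gives about 1 in 20. Fads1 probeset 1423680_at read 10.25 in fenofibrate replicate 3 of PPARα -/- mice, against 10.79 to 10.85 in the other livers of the group. Fads1 probeset 1440444_at read 3.02 in C22:6 replicate 2 of PPARα -/- mice, against 4.10 to 4.50. Fads2 probeset 1449325_at read 9.57 in C18:3 replicate 1 of WT mice, against 10.27 to 10.39. Fads2 probeset 1443838_x_at read 6.53 in C22:6 replicate 5 of WT mice, against 7.43 to 7.66, and 8.24 in C18:3 replicate 5 of WT mice, against 7.94 to 8.02. Elovl2 read 10.80 in C10:0 replicate 2 of PPARα -/- mice, against 11.03 to 11.11, and Elovl3 read 6.75 in C18:2 replicate 4 of PPARα -/- mice, against 7.69 to 8.00. The effect of WY14643 on Elovl5 differed between PPARα -/- and WT mice by -0.70 (limma, adjusted p = 0.0347), with the limits given in the report.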

How the results depend on the processing

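No value changed direction past the threshold under any alternative. The call on 450 single values was the same in all 450 without the filter, with an intensity trend and with median centring, in 447 with quantile normalization, 438 at an unadjusted p under 0.01, 432 with only the groups compared and 424 with array weights, and in 368 of 369 on 83 arrays. With only the groups compared, Elovl3 was called higher after treatment 1 time, Elovl5 lower 0 times, and 2 differences between genotypes in a treatment effect were called, against 0, 2 and 1 as reported. With array weights, Fads1, Elovl2 and Elovl3 had 1 treatment call each (lower, lower and higher), Elovl5 was lower 4 times, 3 differences in a treatment effect and 1 triglyceride pair were called, and the Elovl5 difference for C18:3 was -0.85 (adjusted p = 0.0283). At an unadjusted p under 0.01 these last counts were 2 and 1. Counting any probeset, Fads1 was lower 4 times. Leaving out 1 liver gave 0 to 1 lower calls of Fads1, 0 to 1 higher calls of Elovl3, 1 to 3 lower calls of Elovl5, 0 to 1 differences in a treatment effect, 0 to 1 between the control groups, 0 to 1 triglyceride pairs and 7 to 8 genotype calls over all groups. A replicate block within run and genotype changed none of 342 calls (Elovl5 after C18:3 in PPARα -/- mice -0.75, adjusted p = 0.0019), and the paired fit changed none of 9. That block gives no estimate between genotypes; a block over both genotypes left 107 of 108 calls the same.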

Other observations

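In the first run, replicate 5 had the lowest level of Fads2 probeset 1443838_x_at in 9 of the 9 groups with 5 livers, at 5.48 to 6.72, against 5.54 to 7.86 in all other livers of the run. For the main Fads2 probeset replicate 5 was lowest in 2 of these 9 groups and for probeset 1449325_at in 3. For Fads1 probeset 1440444_at it was lowest in 7 of 9, and for the main Fads1 probeset in 1. It was lowest in 4 for the main Elovl5 probeset, in 5 for Elovl5 probeset 1437211_x_at, and in 3 each for Elovl2 and Elovl3. No such count was made over all probesets. This pattern was noticed after the values were seen, and its source was not tested. The 3 Fads2 probesets also followed each other differently in the 2 runs. Probeset 1419031_at correlated with 1449325_at at 0.939 in the first and 0.464 in the second run, and with 1443838_x_at at 0.638 in the first and 0.946 in the second.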
